A study of Mus musculus with 24 samples.

Results

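Ambn, Clic6, Batf3 and Adcyap1, 4 genes of the 25844 counted, were followed over every dose and time of a limb bud culture experiment. They were chosen by gene symbol, because in these same libraries they had been among the genes that moved most after 24 h. Forelimb buds of CD1 mouse embryos at gestation day 13 were cultured for 3 or 24 h with tert-butylphenyl diphenyl phosphate (BPDP) at 1 or 10 µM, or with the solvent DMSO as control. BPDP belongs to the organophosphate esters that serve as plasticizers and flame retardants, and the title of the series names hedgehog signalling as its subject. Each of the 6 groups (3 doses, 2 times) held 4 libraries of poly-A RNA, 24 in all, from whole cultured limb buds of 1 outbred strain. No label ties a replicate to a litter, animal or culture, so p-values measure only the spread between these samples, which may be technical.

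Ambn encodes ameloblastin, a secreted protein of the enamel matrix that is best known from the ameloblasts of the tooth. Clic6 encodes a chloride intracellular channel protein, one of a family that exists in soluble and membrane-bound forms. Batf3 encodes a small leucine zipper protein that pairs with Jun proteins and is best known for its role in the type 1 conventional dendritic cell. Adcyap1 encodes PACAP, a neuropeptide of the secretin and VIP family. PACAP binds the receptors encoded by Adcyap1r1, Vipr1 and Vipr2, which act largely through adenylyl cyclase and cyclic AMP, and the enzyme encoded by Pam amidates such peptides. Hedgehog proteins direct the patterning and cartilage growth of the limb, and their target genes include Gli1, Ptch1 and Hhip.

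In the authors' tables, which use mouse build mm10, all 4 genes are protein coding and lie on the plus strand. Ambn (ENSMUSG00000029288) lies at chr5:88456011-88468527, Clic6 (ENSMUSG00000022949) at chr16:92485736-92541243, Batf3 (ENSMUSG00000026630) at chr1:191098414-191108943 and Adcyap1 (ENSMUSG00000024256) at chr17:93199422-93205485. Promoter windows of 250 bases before to 50 after a start site were available for 3 of the 4 genes, from RefSeq on GRCm38.p6. Clic6 had none. They are shown so that the start regions of Ambn and Batf3, both lower at 24 h, can be set beside that of Adcyap1, which was higher. Capitals mark CG dinucleotides, and Adcyap1 is given by the downstream one of its 2 overlapping windows. The windows are on the plus strand at chr5:88455741-88456040 (Ambn), chr1:191098164-191098463 (Batf3) and chr17:93198918-93199217 (Adcyap1). The Ambn and Batf3 windows span the gene start in the authors' tables, while the Adcyap1 window ends before it.
Ambn: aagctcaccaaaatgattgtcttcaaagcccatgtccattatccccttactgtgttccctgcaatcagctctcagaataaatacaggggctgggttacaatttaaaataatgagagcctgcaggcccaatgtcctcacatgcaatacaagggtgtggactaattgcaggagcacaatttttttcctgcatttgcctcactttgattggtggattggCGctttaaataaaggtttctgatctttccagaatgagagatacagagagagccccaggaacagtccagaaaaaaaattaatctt
Batf3: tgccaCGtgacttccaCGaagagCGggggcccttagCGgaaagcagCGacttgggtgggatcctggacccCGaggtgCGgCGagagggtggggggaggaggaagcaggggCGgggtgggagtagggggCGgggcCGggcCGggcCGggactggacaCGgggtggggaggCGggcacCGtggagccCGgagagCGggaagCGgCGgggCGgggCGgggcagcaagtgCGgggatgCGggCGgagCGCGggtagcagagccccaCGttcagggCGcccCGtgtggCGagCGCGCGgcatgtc
Adcyap1: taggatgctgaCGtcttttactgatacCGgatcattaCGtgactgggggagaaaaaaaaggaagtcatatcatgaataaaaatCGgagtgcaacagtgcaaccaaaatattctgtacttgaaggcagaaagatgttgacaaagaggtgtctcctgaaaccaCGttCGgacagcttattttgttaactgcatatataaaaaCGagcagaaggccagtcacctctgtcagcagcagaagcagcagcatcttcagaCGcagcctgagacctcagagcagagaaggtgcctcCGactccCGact
The Batf3 window was rich in G and C (75.7%) and held 34 CG dinucleotides, whereas the Ambn window was 41.7% G and C and held 1 CG. The Adcyap1 window shown was 45.7% G and C, with 10 CG dinucleotides. Over all 32851 windows the median was 52.7% G and C (5th to 95th percentile 36.3 to 73.7%) and 7 CG dinucleotides (0 to 37). Both strands of the members' windows were searched for the GLI letters GACCACCCA, the cyclic AMP response element TGACGTCA, the AP-1 letters TGANTCA and the RUNX letters TGTGGT. None of these letters occurred in the windows of Ambn, Batf3 or Adcyap1, while 0.253, 1.79, 7.81 and 16.8% of all windows held them. That says only that these letters are not in these windows.

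Total counts ranged from 14165947 to 20823058 per library. Forelimb genes were expressed in each 24 h group: Tbx5, which marks the forelimb, averaged 239 to 270 CPM over the 3 doses, and the limb mesenchyme gene Prrx1 averaged 414 to 435 CPM. The hindlimb gene Tbx4 averaged 18.6 to 21.4 CPM. CPM here are counts scaled to a common library size (TMM), and log2 fold changes and Benjamini-Hochberg adjusted p-values come from edgeR's quasi-likelihood test. Genes were called at an adjusted p under 0.05. Replicates 1 and 2 differed from replicates 3 and 4 in the level of some of the 4 genes. Batf3 was higher in replicates 1 and 2 than in both others in 4 of 6 groups, and Ambn was higher in replicates 3 and 4 in 3 of 6 groups, with no group the other way for either gene. The labels do not call these a batch, so values within each pair of replicates are given beside the main ones.

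With 10 µM BPDP at 24 h, 963 of 15508 tested genes were called (6.21%), 430 of them higher (2.77%) and 533 lower (3.44%), and 1645 with replicate number as a block. With 1 µM at 24 h, 12 of 15578 were called (0.077%), 3 higher (0.0193%) and 9 lower (0.0578%). Ambn, Clic6 and Adcyap1 were picked from the 10 µM comparison, and Clic6 and Batf3 from the 1 µM comparison. Their values there are descriptions, with no test. The rule took up to 8 called genes a direction by size of change. It kept only genes whose groups did not overlap, with a mean of at least 50 counts, and left out predicted genes. Ranks here are among genes that met these conditions. At 10 µM Adcyap1 stood first among those that rose (rank 4 among all called genes that rose). There the last gene inside was Hrk (2.17) and the next outside was Fgf21 (2.12, log2 fold changes). Ambn and Clic6 stood at ranks 3 and 5 among those that fell (3 and 6 among all called genes that fell). There the last inside was Apoc1 (-2.72) and the next outside was Ttc22 (-2.61). At 1 µM Batf3 and Clic6 stood at ranks 3 and 4 among those that fell, with Bcl2 (-1.04) the last inside and Ccnd1 (-0.83) the next outside.

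Ambn was nearly absent after 24 h with 10 µM BPDP. Ambn read 5.39, 1.95, 6.78 and 4.52 CPM in control limb buds, 1.06, 1.03, 1.91 and 3.56 CPM with 1 µM, and 0, 0.451, 0 and 0 CPM with 10 µM (replicates 1 to 4). The 10 µM libraries lay below every other 24 h library, and the 1 µM range overlapped the control range. Those CPM rest on 8 Ambn reads in the 10 µM libraries, all of them in replicate 2, against 341 reads in the controls. Scaled for library size the ratio was 0.0253 (95% exact interval 0.0108 to 0.0505, counting error only), or 39.5-fold lower. The fitted log2 fold change was -5.24 ± 0.864 (SE). By replicate pair it was -4.02 (1 and 2) and -9.61 (3 and 4); in the second pair the treated libraries held no read and the value depends on the prior count. Without 10 µM replicate 2, which leaves no Ambn read with 10 µM, the fitted value was -9.38. In whole limb buds, fewer cells of a type and less RNA per cell cannot be told apart.

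With 1 µM at 24 h the log2 fold change of Ambn was -1.28 ± 0.450, which did not pass the test (edgeR adjusted p = 0.656; the control libraries are those that chose Ambn at 10 µM). By replicate pair it was -1.81 (1 and 2) and -1.04 (3 and 4). At 3 h Ambn read 0.579, 3.14, 3.06 and 1.86 CPM in controls, 0.884, 0.805, 1.49 and 1.83 CPM with 1 µM, and 0.47, 1.04, 2.31 and 1.54 CPM with 10 µM. These 3 groups overlapped throughout, and neither dose passed the test against control (10 µM -0.71 ± 0.518, edgeR adjusted p = 0.539; 1 µM -0.79 ± 0.462, edgeR adjusted p = 0.947). In controls the log2 fold change of 24 h over 3 h was 1.11 ± 0.473 (edgeR adjusted p = 0.169). The 24 h controls are among the libraries that chose Ambn. In order of mean level, Ambn averaged 4.66 ± 2.03 CPM in 24 h controls, 2.16 ± 1.21 in 3 h controls, 1.89 ± 1.19 with 1 µM at 24 h, 1.34 ± 0.78 with 10 µM at 3 h, 1.25 ± 0.491 with 1 µM at 3 h and 0.113 ± 0.225 with 10 µM at 24 h (SD, n = 4 each). Each neighbour in that order overlapped the next except the last, the 10 µM group at 24 h.

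Clic6 was lower with both doses at 24 h, and more so with 10 µM. Clic6 read 5.02, 5.75, 7.7 and 8.84 CPM in 24 h controls, 2.12, 1.24, 1.45 and 2.52 CPM with 1 µM, and 0.659, 0.225, 0.383 and 1.29 CPM with 10 µM. All treated libraries lay below all controls, and the highest 10 µM library lay just above the lowest 1 µM library. The log2 fold change was -3.41 ± 0.432 with 10 µM (-3.56 within replicates 1 and 2, -3.28 within replicates 3 and 4) and -1.89 ± 0.293 with 1 µM (-1.68 and -2.05). Between 10 and 1 µM it was -1.53 ± 0.360. At 3 h Clic6 read 6.95, 5.19, 4.23 and 6.04 CPM in controls, 5.37, 5.8, 4.59 and 4.41 CPM with 1 µM, and 3.97, 4.09, 2.44 and 4.29 CPM with 10 µM. At that time 3 of the 4 libraries with 10 µM lay below every control, and the change of -0.59 ± 0.230 did not pass the test (edgeR adjusted p = 0.240). Neither did 1 µM at 3 h (-0.15, edgeR adjusted p = 0.986) nor 24 h over 3 h in controls (0.29 ± 0.236, edgeR adjusted p = 0.486). The 24 h controls are among the libraries that chose Clic6. In order of mean level Clic6 averaged 6.83 ± 1.76 CPM in 24 h controls, 5.6 ± 1.16 in 3 h controls, 5.04 ± 0.655 with 1 µM at 3 h, 3.7 ± 0.848 with 10 µM at 3 h, 1.83 ± 0.593 with 1 µM at 24 h and 0.64 ± 0.471 with 10 µM at 24 h (SD, n = 4 each). Neighbouring groups overlapped except at 1 break, between both doses at 3 h.

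Batf3 stood below its controls with both doses at 24 h. Batf3 read 8.26, 5.64, 4.68 and 5.84 CPM in 24 h controls, 1.82, 2, 1.09 and 1.15 CPM with 1 µM, and 1.98, 0.62, 0.893 and 0.969 CPM with 10 µM. Every treated library lay below every control, and both doses overlapped each other. With 10 µM the log2 fold change was -2.43 ± 0.362, which passed the test (edgeR adjusted p = 0.00173, lower in 4 of 4 libraries). The naming rule did not take Batf3 there. Batf3 ranked 12 among genes that fell and met the rule's conditions, and 22 by size among all called genes that fell. This comparison still shares its control libraries with the 1 µM comparison that chose Batf3. Within replicates 1 and 2 alone the 10 µM change was -2.40 (edgeR adjusted p = 0.236), and within replicates 3 and 4 it was -2.48 (edgeR adjusted p = 0.00863). With 1 µM it was -2.02 ± 0.299 (-1.87 within replicates 1 and 2, -2.22 within the others), and between 10 and 1 µM it was -0.41 ± 0.344.

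At 3 h Batf3 read 6.14, 4.81, 3.7 and 4.74 CPM in controls, 4.36, 4.35, 2.73 and 2.58 CPM with 1 µM, and 3.81, 3.21, 1.83 and 2.01 CPM with 10 µM. The 10 µM replicates 2 to 4 lay below every control, and replicate 1 lay just above the lowest control. The 10 µM change of -0.81 ± 0.268 did not pass the test (edgeR adjusted p = 0.175, unadjusted p = 0.0088). With a term for replicates 1 and 2 against replicates 3 and 4 it was -0.86 (edgeR adjusted p = 0.0485), and over all alternatives the adjusted p ranged from 0.0485 to 0.838. The 1 µM change at 3 h (-0.47 ± 0.251, edgeR adjusted p = 0.947) and the change over time in controls (0.34 ± 0.240, edgeR adjusted p = 0.421) did not pass. The 24 h controls are among the libraries that chose Batf3. In order of mean level Batf3 averaged 6.11 ± 1.52 CPM in 24 h controls, 4.85 ± 0.999 in 3 h controls, 3.5 ± 0.981 with 1 µM at 3 h, 2.71 ± 0.951 with 10 µM at 3 h, 1.51 ± 0.464 with 1 µM at 24 h and 1.11 ± 0.594 with 10 µM at 24 h (SD, n = 4 each). Each neighbour in this order overlapped the next.

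Adcyap1 went the other way and was high with 10 µM at 24 h. Adcyap1 read 0.857, 0.308, 0.431 and 0.661 CPM in 24 h controls, 0.765, 2.82, 1.86 and 0.767 CPM with 1 µM, and 3.45, 3.72, 5.81 and 5.88 CPM with 10 µM. The 10 µM libraries lay above all others of the time, and with 1 µM only replicates 2 and 3 lay above every control. In reads, the 10 µM libraries held 68, 66, 91 and 91, against 14, 6, 8 and 13 in the controls. The log2 fold change with 10 µM was 3.06 ± 0.386, and by replicate pair 2.64 (1 and 2) and 3.41 (3 and 4). With 1 µM it was 1.45 ± 0.532 (1.61 and 1.27 within these pairs) and did not pass the test (edgeR adjusted p = 0.675; the control libraries are those that chose Adcyap1 at 10 µM). Between 10 and 1 µM it was 1.60 ± 0.447.

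At 3 h Adcyap1 read 0.174, 0.379, 0.793 and 0.395 CPM in controls, 0.884, 0.322, 0.927 and 0.882 CPM with 1 µM, and 0.626, 0.691, 0.204 and 0.536 CPM with 10 µM. These levels lie within a few times the 0.148 to 0.207 CPM that 3 reads give in these libraries. Adcyap1 was left out by the filter on low counts in the 10 µM comparison at 3 h and in the comparison of times, which tested the other 3 genes. The 1 µM change at 3 h was 0.77 ± 0.543 (edgeR adjusted p = 0.963). In order of mean level Adcyap1 averaged 4.71 ± 1.31 CPM with 10 µM at 24 h, 1.55 ± 0.991 with 1 µM at 24 h, 0.754 ± 0.289 with 1 µM at 3 h, 0.564 ± 0.244 in 24 h controls, 0.514 ± 0.216 with 10 µM at 3 h and 0.435 ± 0.259 in 3 h controls (SD, n = 4 each). Neighbouring groups overlapped except between 10 µM and 1 µM at 24 h.

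**Figure D1:**
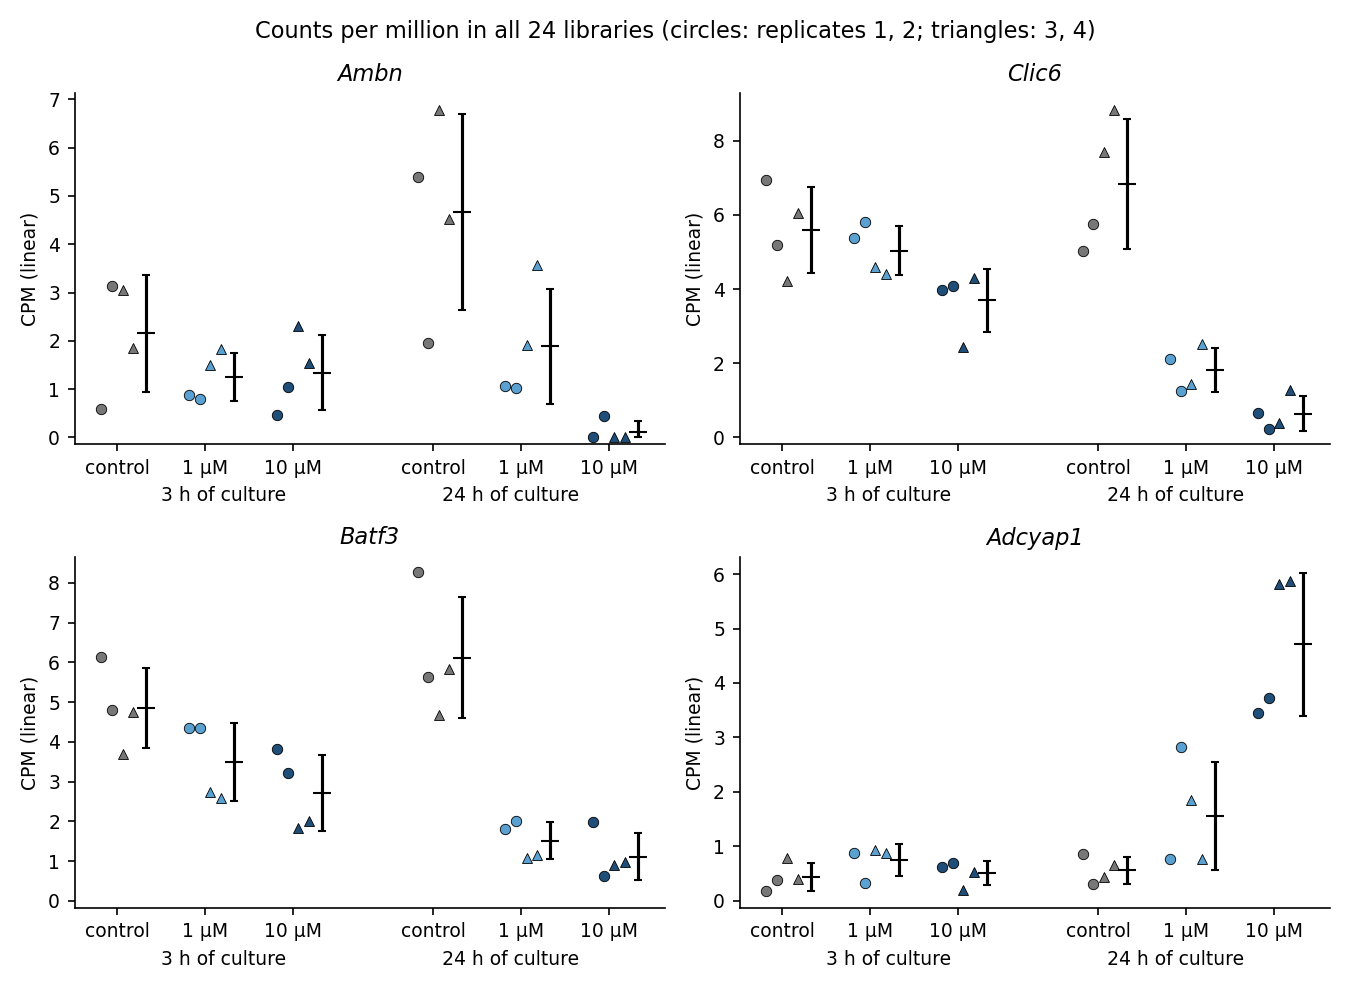
Level of each gene in CPM (linear axis) in the 24 libraries, by dose and time, with the mean ± SD of the 4 libraries at the right of each group (a bar that would pass below 0 ends there). At 24 h with 10 µM, Ambn, Clic6 and Batf3 lay below every control and Adcyap1 above every control.

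All 4 genes had groups that did not overlap with 10 µM at 24 h, where 14.2% of tested genes had none, and Clic6 and Batf3 with 1 µM, where 4.17% had none. The choice of the genes used these comparisons. In neither comparison with control at 3 h were the groups apart for any of the 4 genes, and none of those tested was called. The background there was 1 called gene of 15520 with 10 µM (0.00644%; Dhrs3, -1.07, named after its value was seen). That comparison had 2411 genes at an unadjusted p under 0.05, and its count was 482 with DESeq2, 335 with the replicate block and 446 with the term for replicate pairs. The background was 0 of 15446 with 1 µM, where 801 had an unadjusted p under 0.05 and DESeq2 called 0. Groups were apart for 9.36% of genes with 10 µM and 3.06% with 1 µM at 3 h. The 10 against 1 µM contrast at 3 h gave log2 fold changes of 0.08 for Ambn, -0.44 for Clic6, -0.36 for Batf3 and -0.52 for Adcyap1. Among the 4, groups were apart for Clic6 only (6.12% of all genes), where 10 µM lay below 1 µM, and none was called (edgeR adjusted p = 0.986, 0.672, 0.756 and 0.792), against a background of 0 of 16691 genes called (1385 at an unadjusted p under 0.05; 4 called by DESeq2 and 3 with the replicate block). Over time in controls 1494 of 15640 genes were called (9.55%), and none was among the 3 genes tested. Groups were apart for 16.7% of genes and for none of the 4. The 24 h controls are among the libraries that chose the genes. Between 10 and 1 µM at 24 h, 559 of 16691 genes were called (3.35%), and groups were apart for 10.8% of genes and, among the 4, for Ambn and Adcyap1, a comparison whose libraries chose the genes. Whether the effect of a dose differed between 3 and 24 h was not tested.

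**Figure D2:**
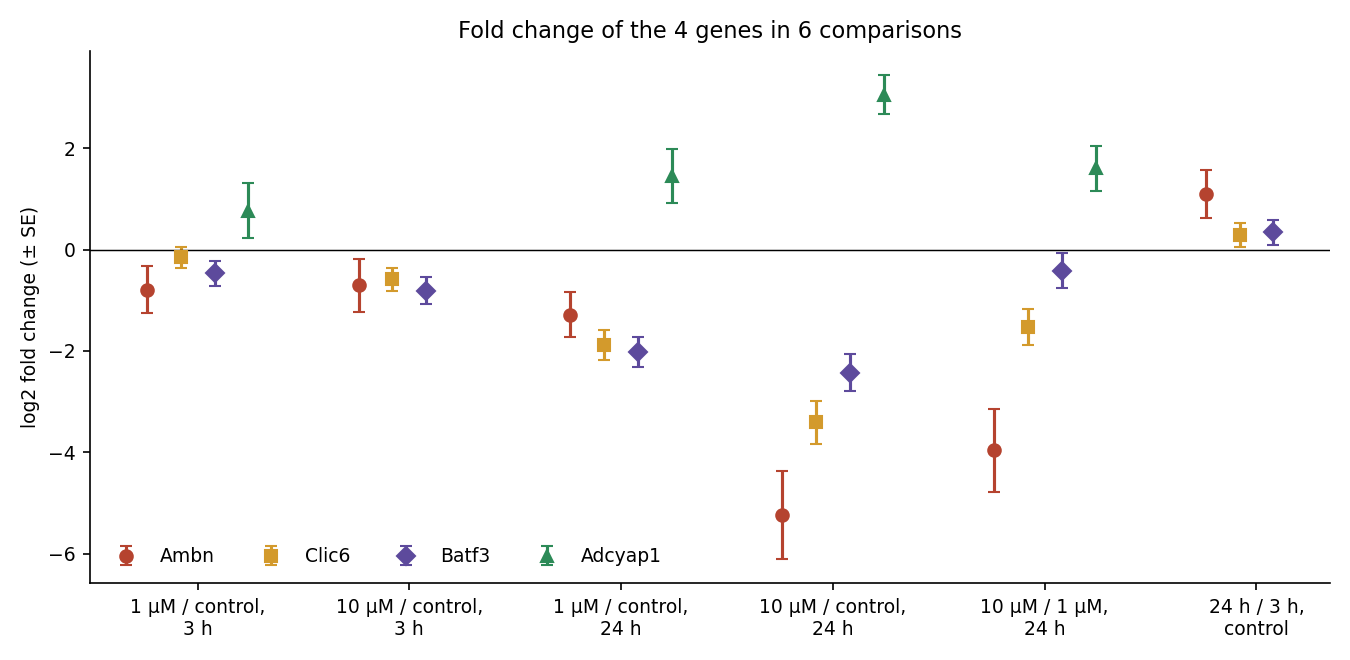
Log2 fold change (± SE) of the 4 genes in 6 comparisons, each named as first over second group; Adcyap1 was left out by the count filter with 10 µM at 3 h and over time in controls. Ambn spread from -5.24 with 10 µM to -1.28 with 1 µM at 24 h, while Batf3 stood at -2.43 and -2.02.

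Per kilobase of transcript, the level of the 4 genes at 24 h was 2.26 CPM for Adcyap1, 1.57 for Batf3, 0.17 for Clic6 and 0.0609 for Ambn with 10 µM. In 24 h controls it was 0.27 for Adcyap1, 8.58 for Batf3, 1.82 for Clic6 and 2.52 for Ambn. Adcyap1 was thus the lowest of the 4 per kilobase in controls and the highest with 10 µM.

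Genes of the same families and pathways as the 4 were read from lists that were fixed with earlier results known. With 10 µM at 24 h, 2.77% of all tested genes were called higher and 3.44% lower. For PACAP, 7 of 12 listed ligand, receptor and processing genes were tested with 10 µM at 24 h, and 1 rose: Pam, which averaged 184 ± 11.4 CPM with 10 µM and 136 ± 9.09 CPM in controls (log2 fold change 0.44, edgeR adjusted p = 0.00784). The median of the list was -0.0128, against -0.0168 for all genes tested. The PACAP receptor gene Adcyap1r1 averaged 4.52 CPM in controls, 4.78 with 1 µM and 5.66 with 10 µM, and Vipr2 averaged 3.48, 3.76 and 3.35 CPM. The related ligand gene Vip was at 0 in all 24 h libraries with either dose and averaged 0.0306 CPM in controls. Of 11 cyclic AMP response genes 0 were called with 10 µM at 24 h (median -0.266); Crem, which encodes a cyclic AMP responsive factor, averaged 11.8, 11.1 and 11.3 CPM over the 3 doses.

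Of 15 enamel matrix genes and their relatives, 6 were tested with 10 µM at 24 h and 0 called (median 0.19). The share called over all tested genes was 6.21%. The enamel genes proper were near the limit of detection: Enam, whose product is enamelin, averaged 0.443 CPM in controls, 0.0654 with 1 µM and 0 with 10 µM, Amelx at most 0.08 CPM, and the enamel protease gene Mmp20 was at 0 at 24 h. Levels of the bone and dentin matrix relatives differed widely at 24 h. Sparc averaged 894, 1030 and 1040 CPM over the 3 doses and Sparcl1 97, 97.2 and 108 CPM. Ibsp averaged 121, 167 and 86.8 CPM, with wide ranges (54.1 to 262 in controls, 8.01 to 173 with 10 µM). Spp1 averaged 12.9, 13.2 and 15.3 CPM and Dmp1 1.03, 2.32 and 1.85 CPM. Dspp averaged at most 0.105 CPM, and Mepe was at 0. Of the other 4 chloride intracellular channel genes 0 were called (median 0.101). Clic1 averaged 146, 147 and 136 CPM and Clic4 218, 228 and 268 CPM. Clic3 averaged 1.99, 1.61 and 0.822 CPM and Clic5 1.48, 1.58 and 2.53 CPM.

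For Batf3, 11 of 13 genes of AP-1 factors and their IRF partners were tested with 10 µM at 24 h, and 3 rose while 0 fell (median 0.147). Among all tested genes 2.77% were called higher and 3.44% lower. Jdp2, a repressor that dimerizes with Jun proteins, averaged 113 ± 11.5 CPM with 10 µM and 68.6 ± 4.67 CPM in controls (log2 fold change 0.73, edgeR adjusted p = 0.00062). Atf3, a stress-responsive factor, averaged 24.4 ± 4.31 CPM with 10 µM and 11.5 ± 3.37 CPM in controls (1.09, edgeR adjusted p = 0.0103). Jund was the third (0.31, edgeR adjusted p = 0.0441), and its call was lost without any one of the 4 treated libraries or without control replicate 3 or 4 (edgeR adjusted p up to 0.116). The closest relative, Batf, averaged 1.31, 1.15 and 1.36 CPM over the 3 doses, and Irf8 averaged 5.94, 5.58 and 3.97 CPM; neither was called. In none of these 5 lists was a gene called with 1 µM at 24 h or with either dose at 3 h. Of all tested genes, 0.077% were called with 1 µM at 24 h. At 3 h the share was 0.00644% with 10 µM and 0% with 1 µM.

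Gli1, Ptch1 and Hhip, all hedgehog target genes, fell with 10 µM at 24 h. Gli1, the pathway's own transcription factor, averaged 1.72 ± 1.2 CPM with 10 µM and 106 ± 15.8 CPM in controls (log2 fold change -5.89, edgeR adjusted p = 0.00098). Ptch1, a hedgehog receptor gene, averaged 22.4 ± 1.58 CPM with 10 µM and 81.7 ± 12.9 CPM in controls (-1.86, edgeR adjusted p = 6.1e-06). Hhip, whose product binds hedgehog proteins, averaged 4.35 ± 1.87 CPM with 10 µM and 19.2 ± 6.65 CPM in controls (-2.14, edgeR adjusted p = 0.00437). Ptch1 also fell with 1 µM at 24 h (-1.57, edgeR adjusted p = 0.00066), and Gli1 at -2.64 did not pass (edgeR adjusted p = 0.245). Gli1 read 9.62 to 34.7 CPM with 1 µM and 93.1 to 129 CPM in controls, so these groups did not overlap. The Hhip change with 1 µM was -1.62 (edgeR adjusted p = 0.0268), and that call was lost in 7 of 8 fits that left out a library, all but the fit without control replicate 1 (edgeR adjusted p up to 0.168). Foxf2, a forkhead factor gene on the same list, rose with 10 µM at 24 h and averaged 33.4 ± 2.34 CPM with 10 µM and 24.4 ± 3.41 CPM in controls (0.46, edgeR adjusted p = 0.0388). That call was lost in 7 of 8 fits that left out a library, all but the fit without control replicate 4 (edgeR adjusted p up to 0.12). None of these 4 genes was called with either dose at 3 h, where 0.00644% (10 µM) and 0% (1 µM) of all tested genes were. At 24 h the naming rule also took Gli1 with 10 µM (rank 2 of those that fell). With 1 µM it took Hhip and Ptch1 (ranks 5 and 6). Their adjusted p there are descriptions, and both doses share the 24 h controls.

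The genes whose log2 CPM over the 24 libraries was most like each of the 4 were listed among 14741 named genes, as a description. All libraries share the 6 groups, so the r values carry the group differences that chose the 4 genes. For Clic6 they were Ccnd1 (cyclin D1, r = 0.951), Bcl2 (an inhibitor of apoptosis, 0.922), Gli1 (0.9), Hhip (0.896) and Ralgps2 (0.888). Deviations from group means gave r with Clic6 of 0.539, 0.342, 0.175, 0.37 and 0.247, in the same order. For Batf3 they included Runx3 (a Runt-domain transcription factor, 0.903), Ptch1 (0.872), Sms (0.859) and Ung (0.857). Deviations from group means gave r with Batf3 of 0.663, 0.515, 0.266 and 0.404, in the same order. Gli1, Hhip and Ptch1 are hedgehog targets. Runx3 averaged 43.3 ± 12.5 CPM in 24 h controls, 10.2 ± 2.48 CPM with 1 µM and 11.5 ± 2.04 CPM with 10 µM, so that, as for Batf3, both doses overlapped each other and lay below the controls.

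For Ambn the most similar genes were Oaz2 (an antizyme of polyamine synthesis, r = 0.856), C1qa (0.841), Cyth4 (0.836), Cx3cr1 (0.813) and Csf1r (0.799). C1qa, Cx3cr1 and Csf1r are macrophage genes. For deviations from group means, r with Ambn was 0.636 for Oaz2 and 0.34, 0.28, 0.204 and 0.0315 for the other 4 genes, in the same order. By Spearman's rho, Oaz2 ranked 1 among the genes most like Ambn, C1qa 36 (0.65), Csf1r 222 (0.541) and Cx3cr1 280 (0.525). C1qa averaged 29.7 ± 7.92 CPM in 24 h controls, 27.8 ± 6.89 CPM with 1 µM and 4.96 ± 1.38 CPM with 10 µM. Ambn had a mean with 1 µM below that of its controls, and C1qa had nearly the same mean in both. For Adcyap1 the 5 were Tm9sf4 (0.873), Prrc1 (0.86), Rcn1 (0.852), Scrn1 (0.837) and Smad2 (0.836). By deviations from group means their r with Adcyap1 was 0.509, 0.379, 0.434, 0.57 and 0.3, in the same order. Their log2 fold changes with 10 µM at 24 h lay between 0.27 (Tm9sf4) and 0.99 (Scrn1), against 3.06 for Adcyap1. Scrn1 averaged 18.2 ± 2.01 CPM in 24 h controls, 27.8 ± 2.4 CPM with 1 µM and 36 ± 6.42 CPM with 10 µM.

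**Figure D3:**
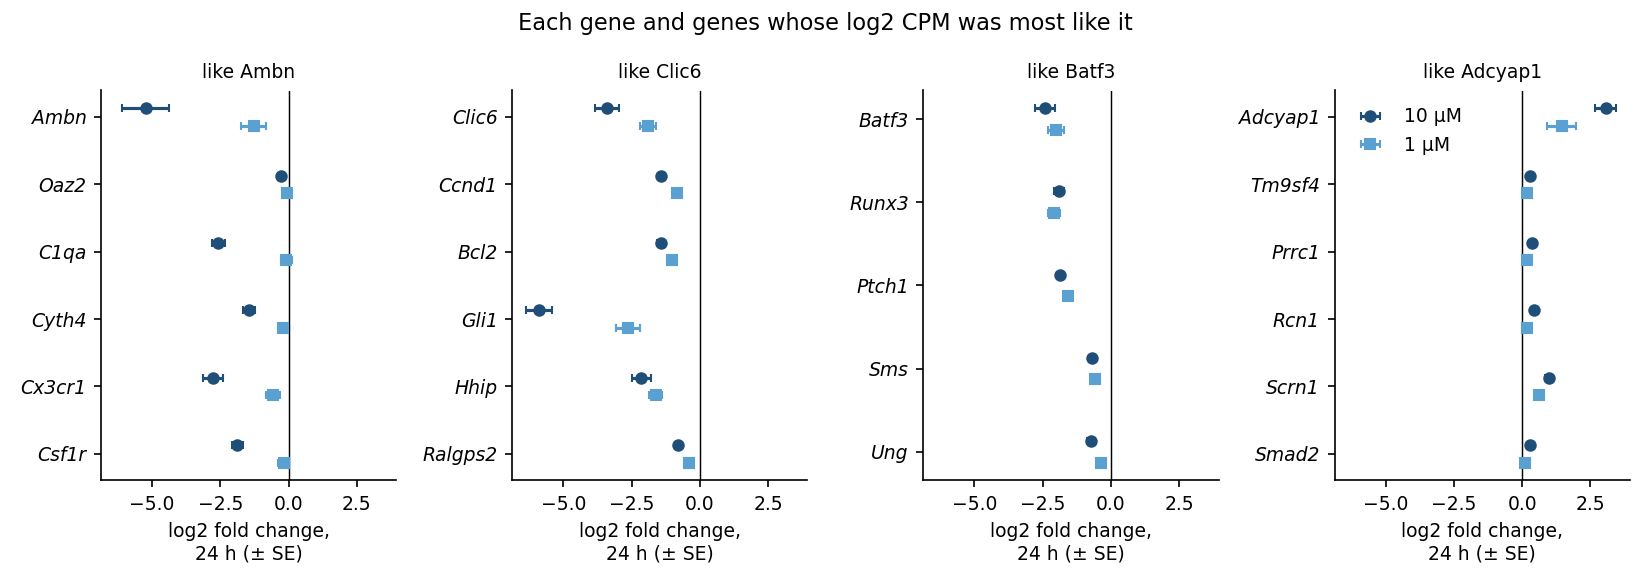
Log2 fold change against control at 24 h (± SE) of each of the 4 genes and of genes among the 5 with the highest Pearson r to it (4 drawn for Batf3), with 10 µM (circles) and 1 µM (squares). With 1 µM, C1qa and Csf1r beside Ambn stood at -0.09 and -0.18 and Cx3cr1 at -0.56; the genes beside Batf3 and Clic6 were below 0 with both doses, and those beside Adcyap1 were above 0 with both doses.

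Markers of other cell types moved with 10 µM at 24 h, where 3.44% of all tested genes were called lower and 2.77% higher. Of 12 macrophage markers 11 were tested and 7 fell (median -1.63), and their summed level was 69.2 to 100 CPM with 10 µM and 172 to 263 CPM in controls; Adgre1 had no row under that symbol. Of 11 epidermis markers 2 fell (median -1.12), Krt5 and Grhl3, and the sum was 998 to 1510 CPM with 10 µM and 1540 to 2680 CPM in controls. The Krt5 call was lost without 10 µM replicate 2 or control replicate 3 (edgeR adjusted p up to 0.056). The epidermis count was 1 without either of these libraries and 4 without control replicate 2. The part of these cells in the results for Ambn, Clic6, Batf3 and Adcyap1 with 10 µM was not tested. With 1 µM, where Clic6 and Batf3 were lower, the macrophage sum was 172 to 258 CPM and the epidermis sum 1330 to 2650 CPM, and 0 markers of either list were called. Over all tested genes only 0.077% were called with that dose.

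Batf3 is known from the type 1 conventional dendritic cell, and markers of that cell were read at 24 h. Xcr1 was at 0 in all 24 h libraries with 10 µM and in controls, Flt3 averaged at most 0.114 CPM at that time, and Clec9a averaged 0.75 CPM in controls, 0.543 with 1 µM and 0.484 with 10 µM. Itgae averaged 0.553, 0.69 and 0.167 CPM over the 3 doses, Itgax 0.27, 0.307 and 0.108, and Cd8a 0.221, 0.0466 and 0.148. The Itgae change of 10 against 1 µM at 24 h was -2.02 (edgeR adjusted p = 0.0811). Others were above that level: over the 3 doses Zbtb46 averaged 6.8, 8.21 and 8.23 CPM, Naaa 7.86, 7.62 and 5.41, Wdfy4 2.64, 2.67 and 2.45, and Tlr3 1.96, 1.88 and 1.64. At 24 h the sum of 11 such markers was 86.5 to 99.9 CPM with 10 µM and 78.7 to 92.1 CPM in controls, most of it from Cadm1 (74.3 and 64.2 CPM), which other cells express too. Of the 5 tested with 10 µM 0 were called (median -0.0935). The share called over all tested genes was 6.21%. Of 11 sensory neuron markers 10 were tested and 0 called (median -0.265), with sums of 21.1 to 27.5 CPM with 10 µM and 26.4 to 31.6 CPM in controls at 24 h. The part of neurons or of dendritic cells in these results was not tested.

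Neighbouring genes were read for each locus. Enam and Amtn, both enamel genes, lie 19.5 and 70.1 kb from Ambn, and Amtn averaged 0.573 CPM in 24 h controls, 0.475 with 1 µM and 0.227 with 10 µM. Rcan1, a calcineurin regulator gene 19.6 kb from Clic6, averaged 47.6, 52.3 and 55.1 CPM over the 3 doses. On its other side Runx1, 60.2 kb away, averaged 19.6, 27.4 and 29.8 CPM, so its mean moved against that of Clic6. A gene that overlaps Clic6 on the same strand, 2410124H12Rik, averaged at most 0.128 CPM in any group. Atf3, 61.4 kb from Batf3, averaged 11.5, 10.5 and 24.4 CPM, and rose with 10 µM where Batf3 fell. Nsl1, a kinetochore gene 13.9 kb from Batf3, averaged 14.8, 10.7 and 9.91 CPM and fell with 10 µM (-0.58, edgeR adjusted p = 0.0459). The Nsl1 call was lost in 6 of 8 fits that left out a library, all but those without 10 µM or control replicate 3, and without the count filter (edgeR adjusted p up to 0.134). The nearest protein-coding gene with its own symbol beside Adcyap1, Mettl4, was 1520 kb away and averaged 9.54, 9.96 and 9.51 CPM.

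The log2 fold changes in the authors' deposited table are smaller than those from the counts for the same genes. How the authors computed them is not given in the sources used here, so they may not be the same measure. For Ambn with 10 µM at 24 h the authors' deposited table lists a log2 fold change of -0.33, while the log2 ratio of the group means in the authors' deposited table is -5.36. For Clic6 the authors' deposited table lists -1.85 with a ratio of means of -3.40, for Batf3 -1.45 with -2.44, and for Adcyap1 1.70 with 3.07. Ambn was thus the gene for which both values in the authors' deposited table lay farthest apart, and the means there follow the counts. The authors' adjusted p for Ambn with 10 µM at 24 h was 0.132 (DESeq2 per the submitters' notes). That is above the threshold used here. The edgeR call of Ambn there was a condition of its choice and is no test. For Clic6, Batf3 and Adcyap1 the authors' adjusted p was 6.78e-14, 7.22e-09 and 9.29e-12 (DESeq2), below that threshold. Ambn, Clic6 and Adcyap1 were picked from this comparison in the same libraries, so their values here are descriptions. Batf3 was picked at 1 µM against the same controls. With 1 µM at 24 h the authors' deposited table lists -0.39 for Ambn, -0.92 for Clic6, -0.96 for Batf3 and 0.30 for Adcyap1.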

How the data were processed

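Poly-A RNA of 24 libraries was sequenced, 4 for each of 6 groups taken from the labels. Per the submitters' processing notes, the tools were HTSeq 0.6.1, STAR 2.5, DESeq2 (as version 2) and CASAVA 1.8, with mm10 as the build. The labels do not say whether strand was kept, so overlapping antisense reads cannot be separated. The authors deposited 5 pairwise tables with raw read counts per gene and library, their own normalized group means (a signal), log2 fold changes, p-values and adjusted p-values, plus FPKM columns. The 50 deposited FPKM and group mean columns were not used, except the group means of the 4 genes, given as the authors' values. The tables were joined by gene identifier into 25844 genes: 0 counts differed between tables, and 34232 cells of genes missing from a table were set to 0. No 2 replicates were near copies (lowest chi-square per degree of freedom 4.7).

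Each comparison was fitted with edgeR 4.0.16 (quasi-likelihood, robust, R 4.3.3) on its 8 libraries, and 10 against 1 µM as a contrast in all 24, with TMM scaling (factors 0.916 to 1.1) and filterByExpr (minimum count 10, total 15). CPM use TMM-scaled sizes over 24 libraries, and log2 CPM a prior count of 2. The SE is the log2 fold change divided by the square root of F. On simulated data at the 10 µM 24 h comparison, 74.2% of changes of log2 size 1 (72 of 97) and 99% of size 2 (96 of 97) were called. In the same data of 15552 genes, 17 unchanged genes were called. Changed genes were drawn over all levels, with a spread set by level, so these shares are not those of low-count genes. The 4 genes and all lists were chosen with earlier results of these data known. The rule that had picked them took called genes whose groups did not overlap, with a mean of at least 50 counts, and kept up to 8 a direction. Also named were the 5 genes of highest r for each, up to 4 called members of each list by size, and up to 3 by level where none was called; Amelx, Enam, Mmp20, Flt3, Xcr1, Clec9a, Cadm1, Zbtb46, Naaa, Wdfy4, Tlr3, Foxf2, Dhrs3 and the neighbouring genes were named in addition, after their values were seen. Itgae, Itgax, Cd8a, Sparcl1, Spp1, Dmp1, Dspp and Mepe were likewise named after their values were seen. Promoter windows were copied from RefSeq (GRCm38.p6). Of the genes that these rules name, 1 is not reported here, and hedgehog target counts were left out with it.

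Libraries of the same replicate number were correlated in their deviations from group means. Every one of 4 pairs passed the bound of 0.1 with 10 µM at 24 h (0.135 to 0.31), with 1 µM at 24 h (0.131 to 0.289) and between doses (0.112 to 0.229 at 3 h, 0.138 to 0.281 at 24 h). In the comparisons with control at 3 h and over time 3 of 4 pairs did. Alternatives were DESeq2 1.42.0, other scaling, no filter, a replicate block, a term for replicates 1 and 2 against 3 and 4, either pair alone, the other set of libraries in the fit, and leaving out each library.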

Additional observations from a re-analysis of the deposited data

Results flagged for a closer look

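Among the 24 gene and group combinations, 2 had a library apart from its 3 replicates. For normally distributed values chance gives about 1 in 20. With 10 µM at 24 h, Ambn had 8 reads in replicate 2 and 0 in the other 3 libraries, so the gap of replicate 2 to the nearest library made up the whole range (a share of 1, past Dixon's bound for 4 libraries). With 3 libraries at 0, any read in the remaining library gives a share of 1, so that rate does not apply here. With 1 µM at 3 h, Adcyap1 read 0.322 CPM in replicate 2 and 0.882 to 0.927 CPM in the other 3 libraries, a gap of 0.924 of the range.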

How the results depend on the processing

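The counts of called genes moved most. With 10 µM at 3 h the 1 called gene became 142 without the count filter, 482 with DESeq2, 335 with the replicate block, 446 with a term for the replicate pairs (1 and 2, or 3 and 4), 4 within replicates 1 and 2, 48 within replicates 3 and 4, 52 in a fit of all 24 libraries, and 1 to 11 when a library was left out (11 without control replicate 1). With 1 µM at 3 h the count of 0 became 2 with the replicate block, 1 and 2 within the replicate pairs, and 0 to 1 without a library. With 10 µM at 24 h the 963 became 1574 with DESeq2, 1645 with the replicate block, 6 within replicates 1 and 2, 1870 in the fit of all libraries and 491 to 1242 without a library. With 1 µM at 24 h the 12 became 60 with DESeq2, 0 and 29 within the replicate pairs, 95 in the fit of all libraries and 7 to 12 without a library. Over time the 1494 became 44 within replicates 1 and 2, 2739 in the fit of all libraries and 791 to 1600 without a library. For 10 against 1 µM the 0 at 3 h became 1 without the filter, 4 with DESeq2, 3 with the replicate block, 3 with the term for replicate pairs and 2 in a fit of 8 libraries, and the 559 at 24 h became 847 with DESeq2, 58 and 359 within the replicate pairs and 275 to 593 without a library. Fits within 2 replicates a group hold fewer libraries; for the other settings the cause was not tested.

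For the 4 genes, the replicate block changed no call; with it, Batf3 with 10 µM at 3 h had an adjusted p of 0.0623. With the term for replicate pairs it passed (-0.86). Batf3 with 10 µM at 24 h did not pass within replicates 1 and 2 (-2.40), and its adjusted p was 0.00196 to 0.00932 without a library. With 1 µM at 24 h, from which Batf3 and Clic6 were picked, their edgeR adjusted p without a library reached 0.101 and 0.182, above the threshold. Ambn moved with 10 µM at 24 h (-4.02 and -9.61 within the pairs, -9.38 to -4.80 without a library) and for 10 against 1 µM at 24 h (-2.23, -8.57, and -8.07 to -3.46). Directions turned for Clic6 over time (-0.168 within replicates 1 and 2), Ambn for 10 against 1 µM at 3 h (-0.158 there, -0.317 to 0.361 without a library) and Adcyap1 for the same contrast (0.147 within replicates 1 and 2). Adcyap1 had no value within replicates 1 and 2 with 1 µM at 3 h. By Spearman's rho 1, 3, 4 and 2 of the 5 genes most like Ambn, Clic6, Batf3 and Adcyap1 were the same. Depth limits Ambn with 10 µM at 24 h and Adcyap1 at 3 h, where libraries held few reads.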
